A study of Mus musculus with 12 samples.

Results

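The ligands through which antigen-presenting cells give T cells costimulatory or coinhibitory signals were followed in thymic epithelial cells (TEC) of mice with and without MHC class II. The 10 genes were chosen by name: *Cd80*, *Cd86*, *Icosl*, *Cd274*, *Pdcd1lg2* and *Cd276* of the immunoglobulin superfamily, and *Tnfsf4*, *Tnfsf9*, *Cd70* and *Tnfsf15* of the TNF superfamily. All 10 were found among the 34547 genes with summed estimated counts and in the deposited log2 table. The study holds 12 RNA libraries, 3 each of cortical TEC (cTEC) and medullary TEC (mTEC) from wild-type (WT) mice and from Aβ0/0 mice. Each library came from thymi pooled from 5 to 10 mice of 4 to 6 weeks. Aβ0/0 mice lack MHC class II in all cells because *H2-Ab1*, the gene of its β chain, is disrupted, and the WT controls were purchased C57BL/6 mice. cTEC were sorted as EpCAM+ CD45- Ly51+ cells that do not bind the lectin UEA1, and mTEC as EpCAM+ CD45- Ly51- cells that bind it.

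T cells need, beside the antigen receptor signal, a second signal from ligands on the presenting cell. CD80 and CD86 bind the activating receptor CD28 and the inhibitory receptor CTLA-4, ICOS ligand binds ICOS, and PD-L1 (*Cd274*) and PD-L2 (*Pdcd1lg2*) bind the inhibitory receptor PD-1. OX40L (*Tnfsf4*), 4-1BBL (*Tnfsf9*), CD70 and TL1A (*Tnfsf15*) are ligands for OX40, 4-1BB, CD27 and DR3. In the thymus, mature mTEC are known for high CD80, and CD28 signals in developing thymocytes take part in the formation of regulatory T cells.

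Several of the ligand genes are neighbours in the genome. In the mouse build GRCm38 with the GENCODE M21 annotation, *Cd274* (chr19:29367455-29388095) and *Pdcd1lg2* (chr19:29410919-29471161) lie on the forward strand with *Cd274* upstream. *Tnfsf9* (chr17:57105325-57107757, forward strand) lies near *Cd70* (chr17:57145997-57149777, reverse strand), and *Cd86* (chr16:36603869-36666081, reverse strand) and *Cd80* (chr16:38455561-38496335, forward strand) share a chromosome. *Icosl* (chr10:78069302-78083913) and *Tnfsf4* (chr1:161395409-161418410) lie on the forward strand, and *Cd276* (chr9:58524298-58555437) and *Tnfsf15* (chr4:63727084-63745113) on the reverse strand.

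Bases upstream of the RefSeq transcription start are given for 4 members whose levels differ in how they follow subset and genotype, from the RefSeq table of GRCm38.p6, which held such windows for *Cd80*, *Icosl*, *Cd274*, *Pdcd1lg2*, *Cd276* and *Tnfsf15*. Each is on the forward strand and runs 5′ to 3′, and capitals mark matches on either strand to the NF-kB consensus or to the GC box GGGCGG. The *Icosl* stretch stops before the first annotated base of the gene (chr10:78069118-78069301), and the others hold the 250 bases before the RefSeq start of *Cd80* (chr16:38458683-38458932), *Cd274* (chr19:29367188-29367437) and *Pdcd1lg2* (chr19:29410669-29410918). The *Cd80* stretch lies within the gene as GENCODE places it, downstream of the start of the GENCODE gene.
Icosl: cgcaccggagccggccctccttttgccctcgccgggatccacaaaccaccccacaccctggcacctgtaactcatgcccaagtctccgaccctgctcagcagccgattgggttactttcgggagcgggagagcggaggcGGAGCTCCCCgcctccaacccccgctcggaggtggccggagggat
Cd80: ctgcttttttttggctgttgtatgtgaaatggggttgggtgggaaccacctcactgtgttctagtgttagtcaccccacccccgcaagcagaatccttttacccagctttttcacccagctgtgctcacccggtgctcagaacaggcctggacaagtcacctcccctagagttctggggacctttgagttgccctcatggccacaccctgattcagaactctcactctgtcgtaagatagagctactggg
Cd274: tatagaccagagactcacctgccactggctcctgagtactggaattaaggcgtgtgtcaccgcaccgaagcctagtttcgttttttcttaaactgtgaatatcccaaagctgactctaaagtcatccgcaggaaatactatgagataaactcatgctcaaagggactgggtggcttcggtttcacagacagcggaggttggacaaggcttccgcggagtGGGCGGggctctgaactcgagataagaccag
Pdcd1lg2: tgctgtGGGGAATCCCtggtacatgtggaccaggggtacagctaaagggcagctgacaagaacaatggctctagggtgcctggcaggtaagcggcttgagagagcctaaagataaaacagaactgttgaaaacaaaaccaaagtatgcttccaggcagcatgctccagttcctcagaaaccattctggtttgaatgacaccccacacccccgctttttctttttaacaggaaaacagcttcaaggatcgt

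Among these windows of 250 bases, the NF-kB consensus matched upstream of *Icosl*, with its first base at position -111 from the RefSeq start, and of *Pdcd1lg2*, at position -244. The consensus was present in 7.25% of all 32851 windows of that length. The GC box matched upstream of *Cd276*, *Icosl* and *Cd274* and was present in 32.7% of windows. The *Icosl* match to the GC box lies past the end of the stretch shown. The interferon-related motifs GAS (TTCNNNGAA) and ISRE core (GAAA, a gap of 2 bases and GAAA), present in 7.02% and 2.98% of windows, matched in none of the 6 members' windows. By composition, the window of *Icosl* held 68.8% G and C and 23 CpG, and that of *Cd276* 77.6% and 29, against a median of 52.4% and 6 over all windows. *Cd80* held 52.8% with 3 CpG, *Pdcd1lg2* 48.4% with 3 and *Cd274* 50.4% with 11. These matches describe letters only, and no binding was measured.

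Estimated counts summed to 21710319 in the smallest and 36139815 in the largest library. *H2-Ab1* was lower in every Aβ0/0 library (2470 to 3960 TPM) than in every WT library (9060 to 12000 TPM). Its transcripts thus persisted in Aβ0/0 cells, and these sums over transcripts do not show which part of the gene the reads came from. TPM is a transcript's share of the library corrected for length and scaled to a fixed total, and was summed here over the transcripts of a gene. Of 10 mTEC markers, 8 were called higher in mTEC than in cTEC in each genotype, and of 10 cTEC markers 8 were called lower in each. Of these markers, *Aire* (log2 fold change 2.17, SE 0.36, adjusted p = 0.0352) and *Ccl25* (1.35, SE 0.23, adjusted p = 0.0352) were also called higher in WT than in Aβ0/0 mTEC. In WT mTEC, the 5 fibroblast markers were led by *Dcn*, *Col3a1* and *Col1a1* and the 5 endothelial markers by *Pecam1*, *Tek* and *Emcn*. The fibroblast markers summed to 1630 to 2490 TPM in cTEC and 109 to 256 TPM in mTEC libraries. The endothelial markers summed to 45.3 TPM or less in every library. According to the sort counts listed with the study, each Aβ0/0 mTEC library was made from fewer cells than each WT mTEC library. Cell number and genotype thus cannot be told apart in mTEC. Each WT cTEC library was likewise made from fewer cells than each WT mTEC library, and cell number and subset cannot be told apart in WT. Nothing in the labels says that the pools share no animals, so that p-values measure the spread between these pools.

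WT mTEC held the broadest set of these ligands. There, 9 of the 10 members exceeded 1 TPM in every library, against 5 in Aβ0/0 mTEC, 4 in Aβ0/0 cTEC and 3 in WT cTEC. In WT mTEC, *Icosl* was highest at 91.5 ± 31.2 TPM (SD, n = 3) and its libraries lay above those of *Cd70*, the next at 42.2 ± 10.4 TPM. *Cd274* followed at 27.3 ± 1.38 TPM, below every *Cd70* library and above every library of *Pdcd1lg2*, at 22.8 ± 0.837 TPM. *Pdcd1lg2*, *Tnfsf9* at 19.9 ± 7.12 TPM, *Cd80* at 13.6 ± 4.38 TPM, *Cd86* at 11.4 ± 3.84 TPM and *Cd276* at 7.36 ± 4.03 TPM each overlapped the next in this order. *Tnfsf15* at 1.52 ± 0.395 TPM and *Tnfsf4* at 0.865 ± 0.528 TPM came last and overlapped each other.

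In the other groups the order differed. In Aβ0/0 mTEC the upper ranks were *Icosl* at 36.2 ± 3.06 TPM, *Cd274* at 27.8 ± 9.05 TPM, *Pdcd1lg2* at 25.9 ± 5.62 TPM and *Cd70* at 15.8 ± 13.2 TPM, all overlapping their neighbours. *Cd276*, *Cd80* and *Tnfsf9* followed at 5.69 ± 5.64, 5.43 ± 2.33 and 3.13 ± 2.59 TPM. *Cd86* and *Tnfsf15* stood below every *Tnfsf9* library, at 0.379 ± 0.4 and 0.279 ± 0.352 TPM, and *Tnfsf4* was at 0. In cTEC, *Cd274* led in both genotypes, at 36.9 ± 22.6 TPM in WT, where it overlapped *Icosl* at 15.0 ± 8.26 TPM, and at 38.8 ± 6.4 TPM in Aβ0/0, where it lay above every *Icosl* library (13.6 ± 7.25 TPM). *Cd276* and *Pdcd1lg2* came next in cTEC, at 4.98 ± 4.05 and 3.33 ± 2.09 TPM in WT and at 8.16 ± 3.53 and 7.82 ± 5.74 TPM in Aβ0/0. The other 6 members had means of 2.05 TPM or less in both cTEC groups.

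**Figure D1:**
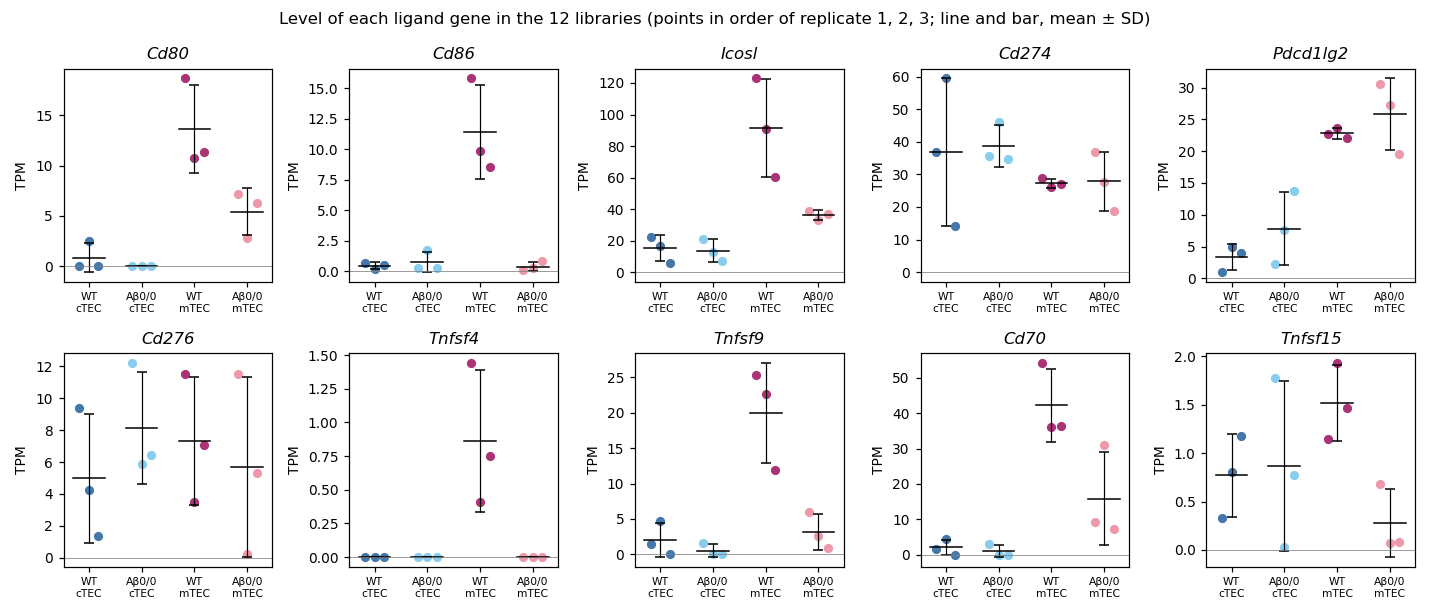
TPM of each of the 10 ligand genes (y axis, linear, own scale per panel) in the 4 groups (x axis), with a point per library, the mean as a line and the SD as a bar. The panels of Cd80, Cd86, Icosl, Tnfsf4, Tnfsf9, Tnfsf15 and, on this scale, Cd70 have all 3 WT mTEC points above all 3 Aβ0/0 mTEC points, while Cd274 and Pdcd1lg2 overlap between genotypes.

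The genotypes were first compared within mTEC, which asks which ligands differ when MHC class II is missing. *Cd86*, *Icosl* and *Tnfsf4* were higher in WT mTEC, and no member was called higher in Aβ0/0 mTEC. These 3 of 10 compare with 5.66% of 18636 genes called in either direction, 5.32% higher in WT and 0.338% higher in Aβ0/0 (edgeR, Benjamini-Hochberg adjusted p under 0.05 over all genes tested). The median log2 fold change of the 10 members, WT over Aβ0/0, was 1.22, also with *Tnfsf4* set to its bound, against 0.0 over all genes. In 6 of 10 members the lowest WT library lay above the highest Aβ0/0 library, which was so for 18.2% of all genes. *Cd86*, *Tnfsf4* and *Tnfsf15* passed the filter on low counts only through the WT mTEC libraries, so that they could be tested only because they were high there. Of the other 7 members, *Icosl* was called and *Cd80*, *Icosl* and *Tnfsf9* did not overlap.

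*Cd86* differed most among the ligands of CD28. Its level was 15.8, 9.85 and 8.53 TPM in WT mTEC replicates 1, 2 and 3 and 0.063, 0.246 and 0.828 TPM in Aβ0/0 mTEC replicates 1, 2 and 3. The WT libraries rested on 418, 411 and 328 estimated counts and the Aβ0/0 libraries on 1, 6 and 16. The log2 fold change was 5.53 (SE 1.10, adjusted p = 0.0363), and every Aβ0/0 mTEC library lay within the range of the cTEC libraries (0.145 to 1.72 TPM) or below it. *Cd80*, the other CD28 ligand, stood at 18.7, 10.8 and 11.4 TPM in WT mTEC and at 7.19, 2.79 and 6.31 TPM in Aβ0/0 mTEC. Its libraries did not overlap, but the log2 fold change of 1.24 (SE 0.48) did not pass the threshold (adjusted p = 0.277). *Cd80* thus kept a level in Aβ0/0 mTEC that was above every cTEC library, which *Cd86* did not.

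*Icosl*, the ligand of ICOS, was at 123, 91.1 and 60.5 TPM in WT mTEC and at 38.7, 32.8 and 37.1 TPM in Aβ0/0 mTEC. No Aβ0/0 library reached the lowest WT library. Its log2 fold change was 1.20 (SE 0.25, adjusted p = 0.0413), and the ratio of mean TPM was 2.53. *Icosl* rested on between 1738 and 6652 estimated counts per mTEC library, the most of the members that were called.

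The ligands of PD-1 showed no such difference. *Cd274* was at 28.8, 26.1 and 26.9 TPM in WT mTEC and at 36.9, 27.8 and 18.8 TPM in Aβ0/0 mTEC. *Pdcd1lg2* was at 22.7, 23.7 and 22.0 TPM in WT mTEC and at 30.6, 27.3 and 19.6 TPM in Aβ0/0 mTEC. The log2 fold changes were -0.13 (SE 0.25, adjusted p = 0.895) for *Cd274* and -0.29 (SE 0.28, adjusted p = 0.744) for *Pdcd1lg2*, and the WT libraries of both genes lay within the range of the Aβ0/0 libraries. *Cd276*, a B7 family member whose T cell receptor is not settled, spread widely within each genotype. It was at 11.5, 3.5 and 7.05 TPM in WT mTEC and at 11.5, 0.24 and 5.33 TPM in Aβ0/0 mTEC, with a log2 fold change of 0.23 (SE 1.04, adjusted p = 0.961).

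Of the TNF superfamily ligands, *Tnfsf4*, which encodes OX40L, had reads in WT mTEC only. It was at 1.44, 0.406 and 0.747 TPM there, from 42, 20 and 34 estimated counts, and at 0 in the other 9 libraries. WT mTEC was at least 11.2-fold higher than Aβ0/0 mTEC, set against 3 counts per library (adjusted p = 0.0358), and counts this low measure the level itself only roughly. *Tnfsf9*, which encodes 4-1BBL, was at 25.3, 22.6 and 11.9 TPM in WT mTEC and at 5.96, 2.55 and 0.876 TPM in Aβ0/0 mTEC. The libraries did not overlap, yet its log2 fold change of 2.61 (SE 0.76) did not pass (adjusted p = 0.134).

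*Cd70* was at 54.2, 36.2 and 36.3 TPM in WT mTEC and at 9.19, 31.1 and 7.18 TPM in Aβ0/0 mTEC. Aβ0/0 replicate 2 alone came near the WT libraries by TPM, and by CPM, the scale of the overlap counts, the genotypes overlapped. Its log2 fold change was 1.17 (SE 0.69, adjusted p = 0.525), and 2.36 without Aβ0/0 mTEC replicate 2 (adjusted p = 0.0587). *Tnfsf15*, which encodes TL1A, was at 1.15, 1.93 and 1.47 TPM in WT mTEC and at 0.686, 0.0683 and 0.0828 TPM in Aβ0/0 mTEC, a log2 fold change of 2.53 (SE 1.13, adjusted p = 0.356). Leaving out 1 library moved it to between 2.1 and 4.16.

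The calls of *Cd86*, *Icosl* and *Tnfsf4* lie close to the threshold. Without Aβ0/0 mTEC replicate 1, *Cd86* (adjusted p = 0.0298) and *Tnfsf4* (adjusted p = 0.0372) kept their call, *Icosl* lost it (adjusted p = 0.0561), and *Tnfsf9* (adjusted p = 0.0499) and *Tnfsf15* (adjusted p = 0.036) were called too. Without any other of the mTEC libraries (WT replicate 1, 2 or 3, or Aβ0/0 replicate 2 or 3) no member passed, and the adjusted p of *Cd86* was 0.0708 to 0.154. The calls over all genes moved alike, to 2377 of 19774 genes without Aβ0/0 replicate 1, to 0 genes without WT replicate 1, 2 or 3 and to 83 and 13 genes without Aβ0/0 replicates 2 and 3. Over all 6 omissions, the log2 fold change of *Cd86* was between 5.02 and 6.67 and that of *Icosl* between 1.04 and 1.43. With DESeq2 in place of edgeR, *Cd80*, *Cd86*, *Icosl*, *Tnfsf4* and *Tnfsf9* passed, against 11.4% of all genes, and none did when the filter on low counts was dropped or replaced by a mean of 10 counts. The sort counts list a WT and an Aβ0/0 pool under each replicate number, without saying that they were sorted together, and with that number as a replicate block *Cd86*, *Icosl* and *Tnfsf4* each had an adjusted p of 0.23 and 0 genes passed.

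**Figure D2:**
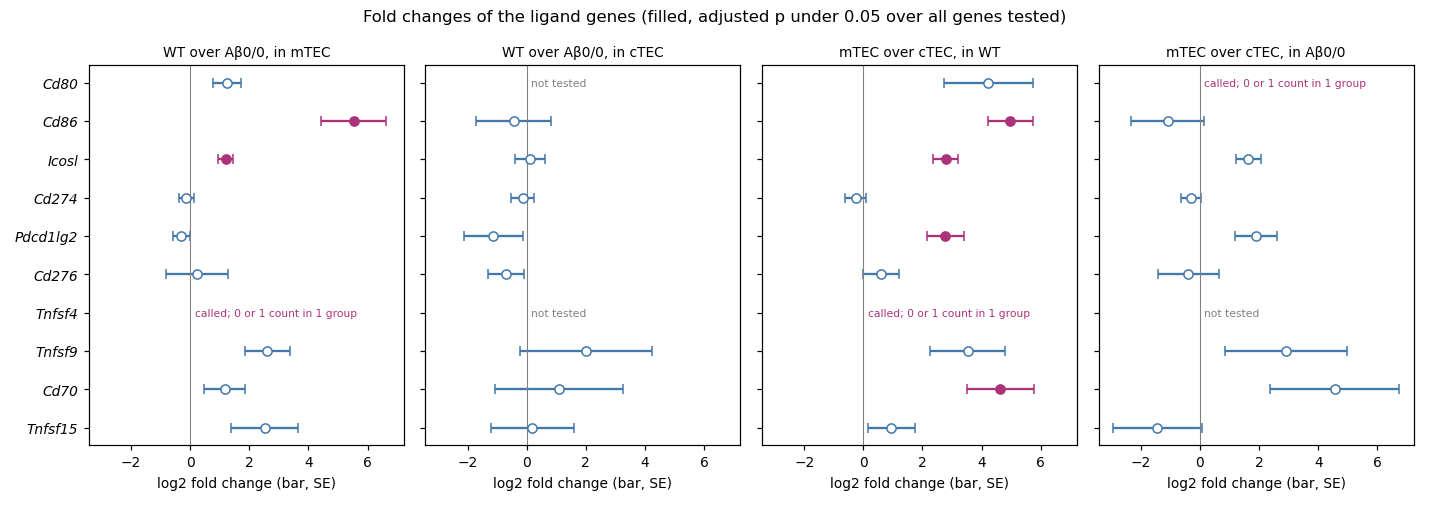
Log2 fold change (x axis, bars show the SE) of each ligand gene (y axis) for WT over Aβ0/0 in mTEC and in cTEC and for mTEC over cTEC in WT and in Aβ0/0, with filled points for an adjusted p under 0.05. Members with 0 or 1 count in a whole group carry words in place of a point, and in cTEC no point is filled.

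*Cd86* also differed in the transcripts to which its reads were assigned. The files list 4 transcripts of *Cd86*, of which Cd86-201 (8 exons, 2539 bases) encodes the protein, while Cd86-202 (3 exons, 654 bases) and Cd86-203 (2 exons, 975 bases) are annotated without a coding sequence. The start of the coding sequence of Cd86-201 is shown because it marks the transcript to which few reads of Aβ0/0 mTEC were assigned, from GENCODE M21 with the start codon in capitals.
Cd86-201: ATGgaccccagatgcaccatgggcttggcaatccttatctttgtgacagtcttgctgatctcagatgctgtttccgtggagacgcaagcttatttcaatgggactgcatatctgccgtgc

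Cd86-201 was at 8.6, 4.76 and 3.97 TPM in WT mTEC replicates 1, 2 and 3 and at 0, 0 and 0.0221 TPM in Aβ0/0 mTEC. It held 80.9% of the 1157 estimated counts of *Cd86* in the WT mTEC libraries together and 5.27% of the 23 in the Aβ0/0 mTEC libraries. By TPM, its mean share over the libraries was 49.8% in WT mTEC and 0.889% in Aβ0/0 mTEC. Cd86-202 was at 6.86, 3.53 and 3.33 TPM in WT mTEC and at 0 in each of the other 9 libraries. Cd86-203 took most of what was assigned to *Cd86* in Aβ0/0 mTEC, 0.063, 0.246 and 0.725 TPM, or 91.3% of the counts, and 83.1% of the counts in Aβ0/0 cTEC and 53.0% in WT cTEC. WT mTEC held Cd86-203 at 0.284, 0.785 and 1.23 TPM, which overlapped Aβ0/0 mTEC. Cd86-203 shares 14 bases with the coding part of Cd86-201, and 10.7% of its 31-base words occur in Cd86-201, so that few reads are common to both. Between Cd86-201 and Cd86-202 the split is less certain, as 55.9% of the 31-base words of Cd86-202 occur in Cd86-201. Cd86-204 (2 exons, 548 bases) lies wholly in exons of Cd86-201, shares 95.6% of its 31-base words with it and was at 0, 0 and 0.0817 TPM in Aβ0/0 mTEC, so that reads of these transcripts cannot be told apart there. The reads of the gene in Aβ0/0 mTEC were mostly assigned to Cd86-203, a short transcript at its 5′ end.

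**Figure D3:**
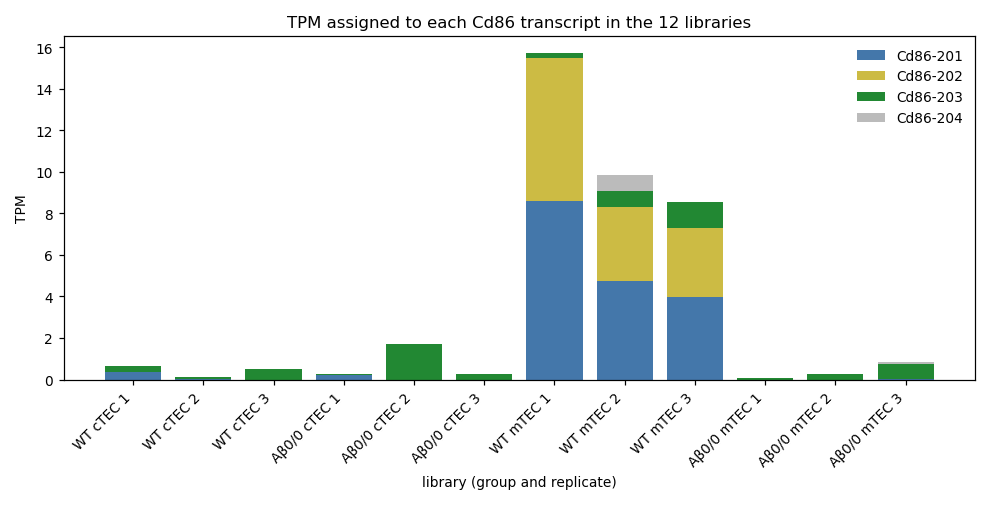
TPM assigned to each of the 4 Cd86 transcripts (stacked bars, y axis from 0) in each of the 12 libraries (x axis). Cd86-201 and Cd86-202 make up most of the bars of the 3 WT mTEC libraries, and Cd86-203 most of the small bars of Aβ0/0 mTEC.

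For *Icosl* and *Cd276*, which also have 4 transcripts in the files, the leading transcript was the same in both genotypes of mTEC. Icosl-201 held 80.8% ± 2.93 (SD, n = 3) of the TPM of *Icosl* in WT mTEC and 82.1% ± 14.2 (SD, n = 3) in Aβ0/0 mTEC. Cd276-201 held 74.5% ± 9.82 (SD, n = 3) and 82.1% ± 15.5 (SD, n = 3). These shares overlapped between the genotypes. The other 7 members had 1 transcript each in the files.

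Genes of dendritic cells, macrophages and B cells, which carry CD86 on their surface, moved in the same direction as *Cd86* in mTEC, although the sort took CD45- cells. Of 16 such markers 15 were tested between the genotypes in mTEC, 3 were called, all higher in WT, against 5.32% of all genes, and 14 had a fold change above 0 (median log2 fold change 1.76, also with genes at 0 set to their bound). *Adgre1*, which encodes the macrophage protein F4/80, was at 9.89, 4.19 and 8.33 TPM in WT mTEC and at 0 in Aβ0/0 mTEC, at least 177-fold higher in WT. *Cd209a* and *Itgax*, at least 13.4-fold and 8.24-fold higher, were called as well. *Clec9a* was at 0 in every Aβ0/0 mTEC library, but WT mTEC held only 1, 12 and 0 estimated counts of it, too few to be tested. The 3 called genes passed the filter only through WT mTEC. The summed level of the 16 markers was 628 to 695 TPM in WT mTEC and 762, 125 and 124 TPM in Aβ0/0 mTEC replicates 1, 2 and 3, most of it *Lyz2* (585 to 626 TPM in WT mTEC and 740, 104 and 107 TPM in Aβ0/0 mTEC). The 16 summed to 53.8 to 393 TPM in WT cTEC and to 54.6 to 73.7 TPM in Aβ0/0 cTEC. *C1qa* was at 12.1, 6.36 and 10.9 TPM in WT mTEC and at 0, 2.74 and 0 TPM in Aβ0/0 mTEC. The part of these cells in the *Cd86*, *Icosl* and *Tnfsf4* results was not tested, and in bulk RNA fewer cells of a type and less RNA per cell cannot be told apart. *Ptprc*, which encodes CD45, overlapped between WT mTEC (3.7 to 4.79 TPM) and Aβ0/0 mTEC (2.35 to 4.46 TPM).

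**Figure D4:**
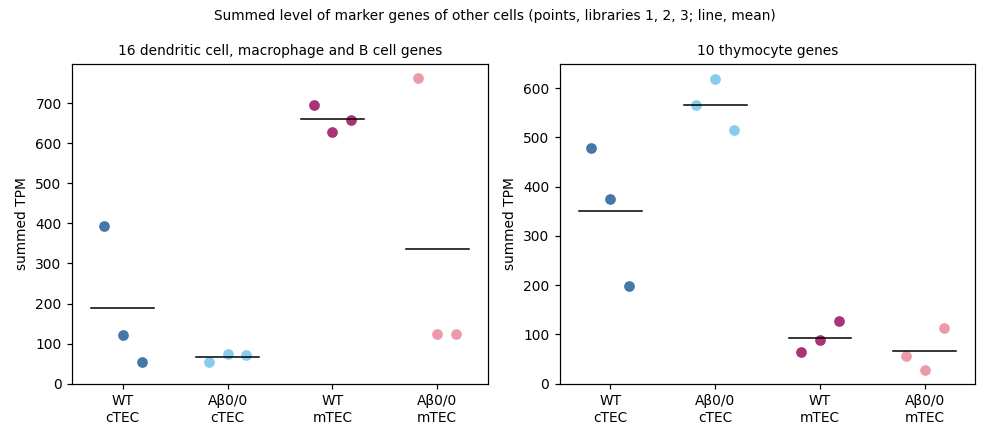
Summed TPM (y axis, from 0) of 16 dendritic cell, macrophage and B cell genes and of 10 thymocyte genes in the 4 groups (x axis), with a point per library and the mean as a line. For the first list the WT mTEC libraries lie at 628 to 695 TPM and Aβ0/0 mTEC replicate 1 at 762 TPM, apart from replicates 2 and 3.

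Within cTEC, no member differed between the genotypes. *Cd80* and *Tnfsf4* were too low to be tested there, and of the 8 members tested, none was called by edgeR and none had an unadjusted p under 0.05. DESeq2 and limma also called none. Of all 15432 genes tested, 0.0194% were called. *Cd274* was at 36.8, 59.5 and 14.3 TPM in WT cTEC and at 35.5, 46.1 and 34.6 TPM in Aβ0/0 cTEC, a log2 fold change of -0.14 (SE 0.40). *Icosl* was at 22.2, 16.8 and 6.02 TPM in WT cTEC and at 21.2, 12.6 and 6.84 TPM in Aβ0/0 cTEC, a log2 fold change of 0.11 (SE 0.51). The widest difference among the better measured members was that of *Pdcd1lg2*, at 0.976, 4.96 and 4.05 TPM in WT cTEC and 2.18, 7.61 and 13.7 TPM in Aβ0/0 cTEC, with a log2 fold change of -1.13 (SE 0.99). *Cd276* was at 9.36, 4.24 and 1.36 TPM in WT cTEC and 12.2, 5.85 and 6.42 TPM in Aβ0/0 cTEC. The libraries of the genotypes overlapped for all 10 members, where 7.83% of all genes did not overlap, and standard errors of this size can leave a difference like that of *Icosl* in mTEC undetected with these libraries.

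In WT mice, 5 of the 10 ligand genes were called between mTEC and cTEC. Of the members, *Cd86*, *Icosl*, *Pdcd1lg2*, *Tnfsf4* and *Cd70* were higher in mTEC and none was called higher in cTEC, where 18% of 18667 genes were called higher in mTEC and 8.81% higher in cTEC. The median log2 fold change of the members, mTEC over cTEC, was 3.15, or 3.11 with *Tnfsf4* at its bound, against 0.06 over all genes. A group of 7 members, *Cd80*, *Cd86*, *Icosl*, *Pdcd1lg2*, *Tnfsf4*, *Tnfsf9* and *Cd70*, had every WT mTEC library above every WT cTEC library, compared with 30.1% of all genes. *Cd80*, *Cd86*, *Tnfsf4*, *Tnfsf9* and *Cd70* passed the filter on low counts only through the WT mTEC libraries, so that these counts and the median rest partly on genes that could be tested only because they were high there. Of the other 5 members, *Icosl* and *Pdcd1lg2* were called and did not overlap. *Tnfsf15*, *Cd276* and *Cd274* were neither, with log2 fold changes of 0.94, 0.59 and -0.26, well below that median. The log2 fold changes were 4.97 (SE 0.77, adjusted p = 0.00371) for *Cd86*, 2.78 (SE 0.41, adjusted p = 0.00295) for *Icosl* and 2.77 (SE 0.63, adjusted p = 0.0133) for *Pdcd1lg2*. *Cd70*, the ligand of CD27, had a log2 fold change of 4.63 (SE 1.14, adjusted p = 0.0193), and an adjusted p of 0.126 when all 12 libraries were fitted. *Tnfsf4* was at least 10.9-fold higher in WT mTEC (adjusted p = 0.00854), a call that was lost with the sorted pool as a replicate block (adjusted p = 0.0574). With limma on the deposited log2 values, *Tnfsf4* (adjusted p = 0.0938) and *Pdcd1lg2* (adjusted p = 0.0608) lost the call.

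*Cd80* and *Tnfsf9* did not pass in WT, with log2 fold changes of 4.23 (SE 1.51, adjusted p = 0.0759) and 3.53 (SE 1.26, adjusted p = 0.0766). The spread lay in cTEC. *Cd80* was at 0, 2.48 and 0.025 TPM in WT cTEC replicates 1, 2 and 3, and *Tnfsf9* at 1.40, 4.74 and 0 TPM. *Cd70* had the same shape, at 1.65, 4.34 and 0 TPM. WT cTEC replicate 2 was thus the highest for all 3 genes, and it was also the highest of the cTEC libraries for the mTEC gene *Aire*, at 7.87 TPM against 2.70 and 1.97 TPM in WT replicates 1 and 3, where the WT mTEC libraries held 243 to 626 TPM. Without WT cTEC replicate 2, 7 members were called, and *Cd80* had a log2 fold change of 9.41 (adjusted p = 0.000695) and *Tnfsf9* one of 5.04 (adjusted p = 0.0262). Without WT cTEC replicate 3, *Cd80* (adjusted p = 0.0481) and *Tnfsf9* (adjusted p = 0.00889) were called too. *Cd80* also passed with limma on the deposited log2 values (adjusted p = 0.0457) and *Tnfsf9* with DESeq2 (adjusted p = 0.00649). *Cd70* lost its call when WT mTEC replicate 1, 2 or 3 was left out (adjusted p = 0.0802, 0.0629 and 0.0574) and when WT cTEC replicate 1 was (adjusted p = 0.0548), and *Pdcd1lg2* without WT mTEC replicate 2 (adjusted p = 0.0533).

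*Cd274* did not separate the subsets in WT. Its log2 fold change was -0.26 (SE 0.35, adjusted p = 0.637), and the WT mTEC libraries at 26.1 to 28.8 TPM lay inside the range of WT cTEC at 14.3 to 59.5 TPM. *Pdcd1lg2*, which follows it on the chromosome, had each WT mTEC library at 22.0 TPM or more and each WT cTEC library at 4.96 TPM or less. *Cd276* and *Tnfsf15* also overlapped between the subsets, with log2 fold changes of 0.59 (SE 0.60, adjusted p = 0.523) and 0.94 (SE 0.79, adjusted p = 0.434).

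In Aβ0/0 mice only *Cd80* of 9 members tested was called between the subsets, where 3.45% of 15687 genes were called higher in mTEC and 2.15% higher in cTEC. It passed the filter only through the mTEC libraries. Its summed estimated counts were 564 in mTEC and 1 in cTEC, a ratio of 669 after scaling to depth, with an exact 95% interval of 120 to 26500 that covers counting error only (adjusted p = 0.0273). The call was lost with the sorted pool as a replicate block (adjusted p = 0.068) and without any of the 6 Aβ0/0 libraries in turn (adjusted p between 0.0606 and 0.11). *Icosl*, *Pdcd1lg2* and *Cd70* also had each Aβ0/0 mTEC library above each Aβ0/0 cTEC library, as 15.1% of all genes did. Their log2 fold changes were 1.64 (SE 0.42, adjusted p = 0.0671), 1.90 (SE 0.72, adjusted p = 0.214) and 4.55 (SE 2.19, adjusted p = 0.336). Leaving out 1 library moved that of *Cd70* to between 3.35 and 11.27. *Cd86* did not separate the subsets in Aβ0/0 mice, where its log2 fold change was -1.09 (SE 1.24, adjusted p = 0.727) and the libraries overlapped.

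Whether the genotype difference itself differed between mTEC and cTEC was tested over all 12 libraries. No member passed by edgeR, and 1 had an unadjusted p under 0.05, while DESeq2 and limma on the log2 table each called *Cd86*. By edgeR, 2 of 19461 genes passed (0.0103%). *Cd86* had a difference of 6.02 on the log2 scale (SE 1.69, unadjusted p = 0.00386, adjusted p = 0.39), WT over Aβ0/0 in mTEC less the same in cTEC. *Icosl* had 1.12 (SE 0.58, adjusted p = 0.765). A genotype difference particular to mTEC was therefore not shown for *Icosl*, and for *Tnfsf4*, at 0 in the other groups, the term could not be estimated.

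The receptors of these ligands belong mostly to T cells, but a pair of them was well measured in mTEC. *Tnfrsf9*, the receptor 4-1BB for the *Tnfsf9* product, was at 60.4, 50.4 and 37.9 TPM in WT mTEC and at 22.2, 4.49 and 9.82 TPM in Aβ0/0 mTEC. *Tnfrsf4*, the receptor OX40 for the *Tnfsf4* product, was at 29.8, 27.6 and 25.5 TPM in WT mTEC and at 11.1, 9.27 and 14.1 TPM in Aβ0/0 mTEC. Both were below 4 TPM in each cTEC library. Their genotype differences in mTEC, 2.28 (SE 0.71, adjusted p = 0.162) and 1.07 (SE 0.39, adjusted p = 0.232) on the log2 scale, did not pass. For both genes every WT mTEC library lay above every Aβ0/0 mTEC library, as for 18.2% of all genes.

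Of the 8 receptor genes, *Tnfrsf9*, *Tnfrsf4* and *Tnfrsf25*, which encodes DR3, were called higher in mTEC than cTEC in WT, against 18% of all genes, with log2 fold changes of 6.08 (SE 0.97), 5.37 (SE 1.35) and 5.17 (SE 1.26), and passed the filter only through mTEC. *Tnfrsf25* was low, at 0.591 to 1.40 TPM in WT mTEC. In WT cTEC *Tnfrsf25* had 0, 0 and 2 estimated counts, *Tnfrsf4* 32, 0 and 2 and *Tnfrsf9* 3, 84 and 7, so that these folds are rough. In Aβ0/0 mice *Tnfrsf9* was called higher in mTEC (log2 fold change 7.64, SE 1.72, adjusted p = 0.0444) and *Cd27* lower (-3.50, SE 0.78, adjusted p = 0.0436), against 3.45% and 2.15% of all genes. *Tnfrsf9* had only 0, 1 and 6 estimated counts in the Aβ0/0 cTEC libraries. It passed the filter only through mTEC there too, and the size of its fold is uncertain. *Cd27*, the CD70 receptor, is a thymocyte gene as well, and was at 32.9 to 40.7 TPM in Aβ0/0 cTEC and 2.04 to 7.83 TPM in Aβ0/0 mTEC. The 10 thymocyte markers summed to 514 to 619 TPM in Aβ0/0 cTEC and 27.2 to 114 TPM in Aβ0/0 mTEC (198 to 479 and 64.0 to 127 TPM in WT), with none at 0 in a whole group and 3 of them called lower in mTEC, and their part in the *Cd27* result was not tested. The highest of them in WT mTEC were *Lck*, *Cd8b1* and *Cd8a*, at 21.1 to 38.1, 8.73 to 25.6 and 6.71 to 13.8 TPM.

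Between the genotypes in mTEC 1 receptor gene of 8 was called, against 5.66% of all genes. *Icos* had 32, 32 and 19 estimated counts in the WT mTEC libraries and 1, 0 and 0 in the Aβ0/0 mTEC libraries, a ratio of 80.8 with an exact 95% counting interval of 14.1 to 3230 (adjusted p = 0.0401), and passed the filter only through WT mTEC. *Cd28*, *Ctla4* and *Pdcd1* were at 0.671 to 3.18, 1.16 to 4.86 and 0.457 to 1.23 TPM in WT mTEC and were not called in any comparison. The median log2 fold change of the 8 receptors between genotypes in mTEC was 1.12, against 0.0 over all genes.

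**Figure D5:**
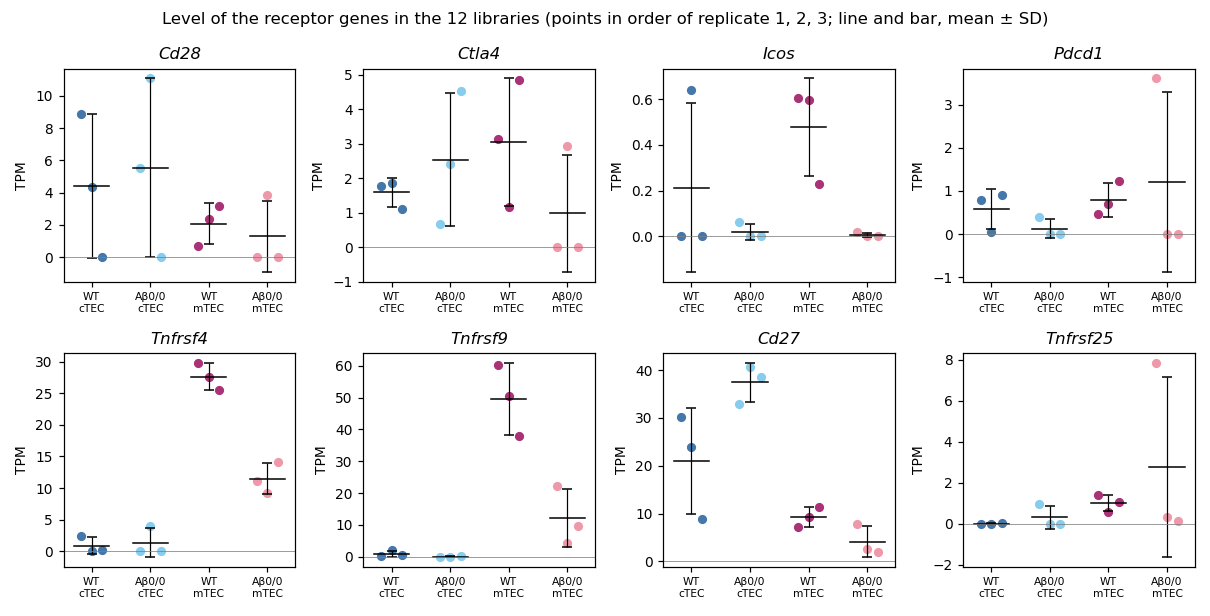
TPM of the 8 receptor genes (y axis, linear, own scale per panel) in the 4 groups (x axis), with a point per library, the mean as a line and the SD as a bar. Tnfrsf4 and Tnfrsf9 lie at 25.5 TPM or more in each WT mTEC library and below 4 TPM in each cTEC library.

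Related ligand genes outside the 10 were described in the same way. Of 14 other TNF superfamily ligands, 12 were tested between genotypes in mTEC, and *Tnfsf8*, which encodes CD30L, and *Tnfsf14*, which encodes LIGHT, were called, both higher in WT (median log2 fold change of the 12, 0.67, also with these genes at their bound). Both were low, at 0.603 to 2.96 and 0.423 to 0.816 TPM in WT mTEC, and at 0 in Aβ0/0 mTEC, so that WT was at least 40.6-fold and 8.3-fold higher. Over all genes, 5.32% were called higher in WT. *Tnfsf8*, *Tnfsf14* and *Cd48* could be tested only through the WT mTEC libraries. Of 13 other ligands of the immunoglobulin family or related checkpoints, 12 were tested, and *Cd48*, a ligand of the SLAM family receptor 2B4, was called higher in WT mTEC, at 1.06 to 3.04 TPM against 0 in Aβ0/0 mTEC, at least 14.9-fold. The median log2 fold change of these 12 was -0.22. *Cd48* was at 1.82 to 12.2 TPM in the 6 cTEC libraries, above its mTEC level on average, and is also a gene of blood cells.

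Receptors and factors that act upstream of such ligands in TEC include *Cd40*, RANK (*Tnfrsf11a*) and the NF-kB subunits. By edgeR, none of these 12 was called between the genotypes in mTEC or cTEC. All 12 were tested, with medians of 0.17 and 0.0 on the log2 scale, and other fits were not examined for them. *Cd40*, a TNF receptor that drives mTEC activation, was at 270, 218 and 201 TPM in WT mTEC and at 55.0, 120 and 73.0 TPM in Aβ0/0 mTEC. These libraries did not overlap, as for 18.2% of all genes with WT higher, and the log2 fold change was 1.18 (SE 0.40, adjusted p = 0.202). In cTEC *Cd40* lay the other way, at 22.1, 18.5 and 8.61 TPM in WT and 46.0, 57.0 and 27.8 TPM in Aβ0/0 (log2 fold change -1.45, SE 0.44, adjusted p = 1.0). The interaction for *Cd40* was 2.66 (SE 0.60, unadjusted p = 0.000822, adjusted p = 0.35). Between the subsets in WT, 4 of the 12 were called higher in mTEC and 2 lower, against 18% and 8.81% of all genes.

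Across the 12 libraries, the deposited log2 values of the members correlated to widely differing degrees. The highest values of Pearson's r were 0.905 between *Cd80* and *Icosl*, 0.909 between *Cd80* and *Cd70*, 0.938 between *Icosl* and *Cd70*, 0.898 between *Tnfsf9* and both *Icosl* and *Cd70*, and 0.919 between *Cd86* and *Tnfsf4*. Others lay in between, such as 0.66 between *Cd80* and *Cd86*, 0.645 between *Cd86* and *Cd70* and 0.426 between *Cd86* and *Pdcd1lg2*. For *Cd274* it lay between -0.315 and 0.089 with each other member, -0.078 with its neighbour *Pdcd1lg2*. These 12 points hold 4 groups and share library depth, so that r mostly follows the differences between groups.

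Among 14729 genes with a mean of at least 50 estimated counts, those with the pattern most like each member by the same r are named without a test. They were *Speer4c*, *Irf4* and *Tnfrsf9* for *Cd80* (r of 0.986, 0.983 and 0.981), and *Rbfox3*, a neuronal splicing factor gene, *Fcna*, a macrophage lectin gene, and *Muc5ac*, a mucin gene, for *Cd86* (0.986, 0.98 and 0.974). For *Icosl*, *Laptm5* and *Nup85* were among them (0.964 and 0.962). For *Cd70* they were *Ccl22*, a chemokine gene, *Aif1l* and *Uchl1* (0.971, 0.97 and 0.964), for *Tnfsf9* *Pth1r*, *Tbx3* and *Sgpp1* (0.971, 0.968 and 0.963), and for *Tnfsf4* *Csrp3*, *Elobl* and *A2m* (0.973, 0.973 and 0.964). *Pdcd1lg2* was most like *Scg5*, *Asprv1* and *Ccl21a*, an mTEC chemokine gene (0.967, 0.963 and 0.957). *Cd274* (*Hbp1*, *Exosc3* and *Ndfip2*, 0.933 to 0.903), *Cd276* (*Samd8*, *Bin1* and *Slc25a53*, 0.965 to 0.936) and *Tnfsf15* (*Apod*, *Fkbp11* and *Ska1*, 0.858 to 0.843) completed the list.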

How the data were processed

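The 12 libraries were made from sorted cTEC and mTEC with the SMART-Seq v4 low input kit, which selects poly-A RNA and amplifies cDNA by PCR, and were sequenced as paired-end reads. The submitters' notes name bcl2fastq 2.20.0, Trim Galore, kallisto 0.43 and DESeq2, with the build mm10. The authors deposited, per library and transcript, estimated counts from kallisto and TPM values. They also deposited a table of regularized log2 values per gene (rlog). Strand use in counting is not given in the sources used here, so reads of overlapping antisense genes could be counted with a member.

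Transcripts were matched to GENCODE M21 by identifier, and those without a match held 0.45% to 0.512% of the counts. Estimated counts were summed per gene and rounded. Groups came from the sample labels. Genes kept by filterByExpr were tested in R 4.3.3 with edgeR 4.0.16 (quasi-likelihood F test, robust, TMM), with Benjamini-Hochberg adjustment over all genes tested and a threshold of 0.05, on the 6 libraries compared or on all 12 for the interaction. The standard error (SE) of a log2 fold change is its size over the square root of F. Genotype is coded WT over Aβ0/0 and subset mTEC over cTEC. Levels of genes were compared in TPM, and overlap of libraries was judged in CPM. A fold against a group at 0 was set against 3 counts per library. Alternatives used DESeq2 1.42.0, limma 3.58.1 on the rlog values, other filters and scalings, all 12 libraries, a replicate block and leaving out each library. The procedure was tested on simulated data. Members and gene lists were chosen with earlier results of these data known. Named were the members, the receptors, list genes called between genotypes, the 3 genes most like each member and the leading markers of other cells, of which some are not reported here. *Cd40*, *Clec9a* and *Ptprc* were added after their values were seen. *Ccl21a* has more than 1 identifier, and the first in the annotation was used.

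cTEC and mTEC libraries of 1 genotype and number were taken as 1 sorted pool, since the study lists both yields per sorting. Their deviations from the means of their groups correlated at 0.0381 to 0.24. The pool was fitted as a replicate block for subset comparisons and the interaction. PCR copies are not independent molecules, so counting intervals cover counting error only.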

Additional observations from a re-analysis of the deposited data

How the results depend on the processing

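Between genotypes in mTEC, where 3 members passed, 0 passed with no filter, with a mean of at least 10 counts, with edgeR on all 12 libraries and with a replicate block, 5 with DESeq2 and 1 with limma on the log2 table. Leaving out 1 library gave 0 to 4. Over all genes, these settings called 27, 11, 20, 0, 2454 and 661 in place of 1054. The labels do not say that a replicate number pairs samples between genotypes (correlations of -0.0391 to 0.245), and that block left 0 calls in mTEC and 0 in cTEC. Between subsets, leaving out 1 library gave 3 to 7 members in WT and 0 in Aβ0/0. In WT, *Cd70* lost its call on all 12 libraries, *Tnfsf4* with the block and with limma, and *Pdcd1lg2* with limma. In Aβ0/0, DESeq2 and all 12 libraries gave 2, and the pool as a replicate block 0. For the interaction, DESeq2 and limma gave 1 each, and the block changed no call. Over all genes, counts that moved by more than 1.5 times with other settings were, between genotypes in cTEC, 7 with no filter, 120 with DESeq2, 16 on all 12 libraries and 0 with the block in place of 3, between subsets, 2760 on all 12 libraries in place of 4997 in WT and 2756 with DESeq2, 1819 on all 12 libraries and 250 with limma in place of 878 in Aβ0/0, and for the interaction, 407 with DESeq2, 777 with limma and 0 with the block in place of 2. Leaving out 1 library moved these totals to between 0 and 2377 for genotype in mTEC, 1 and 3 for genotype in cTEC, 3395 and 7572 (without WT cTEC replicate 3) for subset in WT, 338 and 456 for subset in Aβ0/0, and 1 and 18 (without Aβ0/0 mTEC replicate 1) for the interaction. By CPM in place of TPM, 6, 5 and 4 members kept their rank in WT cTEC, WT mTEC and Aβ0/0 mTEC. Averaged over the shares of single libraries, Cd86-201 held 80.7% of the counts in WT mTEC and 2.53% in Aβ0/0 mTEC. Icosl-201 held 86.7% in WT mTEC in the same way.

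Of 660 values for single members, 571 kept direction and side of the threshold, 46 lost the call, 14 gained one and 29 changed sign, none of them called. With limma, *Cd274* between genotypes in mTEC was at 0.01 and the *Cd80* interaction at 0.39. With the block, the interactions of *Tnfsf9* and *Cd70* were at -0.45 and -1.49. Leaving out 1 library gave log2 ranges across 0 between genotypes in mTEC for *Cd274* (-0.34 to 0.01) and *Cd276* (-0.32 to 1.09), and in cTEC for *Cd86* (-1.08 to 0.69), *Icosl* (-0.25 to 0.47), *Cd274* (-0.60 to 0.16), *Cd70* (-0.18 to 7.87) and *Tnfsf15* (-0.60 to 1.15). Between subsets they were -0.56 to 0.15 for *Cd274* in WT, and -2.25 to 0.05 for *Cd86* and -1.28 to 0.15 for *Cd276* in Aβ0/0. For the interaction they were -6.47 to 0.53 (*Cd80*), -0.25 to 0.52 (*Cd274*), -5.89 to 2.18 (*Tnfsf9*) and -6.66 to 1.38 (*Cd70*). The causes were not tested. Depth limits members with few counts most: *Tnfsf4*, *Tnfsf15* and, in cTEC, *Cd80*, *Cd86*, *Tnfsf9* and *Cd70*.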
